A study of Homo sapiens with 6 samples.

Results

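The 10 prostaglandin genes described here are PTGDS, PTGS1, PTGS2, PTGES, PTGES2, PTGES3, PTGER2, PTGER4, PTGFR and HPGD, taken by symbol from the 57773 genes in the count table. They encode synthases, receptors and an inactivating enzyme, and they were chosen with earlier results of this same comparison known, so their differences between the groups are given as descriptions with no p-value. RNA sequencing compared SW872 cells, a human liposarcoma cell line cultured in RPMI-1640 with serum, after 24 h with 18 μM Apatinib, against control SW872 cells that the study lists as untreated. Apatinib is a small-molecule inhibitor of tyrosine kinases that was developed against the vascular endothelial growth factor receptor VEGFR-2. Each group had 3 replicates, which the methods call biological, and all 6 samples came from the same line, so the values describe a single tumour cell line and not liposarcoma in general.

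Prostaglandins are short-lived lipid signals that cells make from arachidonic acid. Phospholipases free the arachidonic acid from membranes, the cyclooxygenases PTGS1 (COX-1) and PTGS2 (COX-2) turn it into prostaglandin H2, and a terminal synthase then sets which prostanoid is made. PTGDS makes prostaglandin D2 and is also a secreted carrier protein of the lipocalin family, the PTGES enzymes make prostaglandin E2, and the cell surface receptors for prostaglandin E2 and F2α include PTGER2, PTGER4 and PTGFR. HPGD, known as 15-hydroxyprostaglandin dehydrogenase, starts the breakdown of prostaglandins inside cells. Fat tissue makes several of these lipids, and prostaglandins are known to act on the differentiation of fat cell precursors.

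The 6 libraries held between 17043314 and 22067558 counts. A total of 16290 genes passed the filter on low counts, and 8 of the 10 prostaglandin genes were among them. PTGS2 and HPGD had too few counts and got no fold change. Over all genes tested, 1866 (11.5%) passed both limits of the study for a differentially expressed gene (DEG), a false discovery rate (FDR) under 0.05 and a log2 fold change over 0.5 in size, in the quasi-likelihood test of edgeR, adjusted by Benjamini-Hochberg over all genes tested. Of these, 973 genes (5.97%) were higher and 893 genes (5.48%) were lower after Apatinib. The total fell to 275 without control replicate 1, to 300 without control replicate 2 and to 292 with both summed as 1 sample, so the background shares apply to the analysis of all 6 samples. Control replicates 1 and 2 were nearly alike: their mean chi-square over genes was 2.27, where sampling noise alone gives 1 and the other pairs of the same group had 18.2 to 44.5. Control replicate 3 was closer to Apatinib replicate 3 (26.5) than Apatinib replicate 2 was to Apatinib replicates 3 (34.3) or 1 (44.5), so distances within and between the groups overlapped. Control replicates 1 and 2 differed by more than this noise and were kept as 2 samples, and each result is also given without either of them where that changes it. This distance cannot tell whether they came from separate cultures. The control SDs with n = 3 and the background shares treat them as separate. All 10 mesenchymal marker genes looked for, such as VIM and collagens, passed the filter, whereas 2 of 8 fat cell markers (FABP4 and ADIPOQ) and 2 of 7 blood cell markers (PTPRC and LYZ) were at 0 in every sample. Other markers of these lists were expressed, among them PPARG at 55.1 CPM after Apatinib and 50.9 CPM in the control and CD14 at 3.3 and 4.75 CPM.

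Of the 8 prostaglandin genes tested, 3 passed both limits, and all 3 were higher in the Apatinib group. They were PTGDS (5.59-fold), PTGS1 (2.01-fold) and PTGES (1.85-fold). In bulk RNA, a change in the number of cells that express a gene and a change in its RNA per cell cannot be told apart. The count is 37.5% of the genes tested, beside the 11.5% of all genes given above, and nothing is read from it because the genes were chosen on this contrast. The Apatinib and control values did not overlap for 4 of the 8 genes (the same 3 and PTGER2), beside 5407 (33.2%) of all genes tested. The median log2 fold change of the 8 genes was 0.33, against 0.00 over all genes tested. PTGES2, PTGES3, PTGER4 and PTGFR did not pass the limits.

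**Figure D1:**
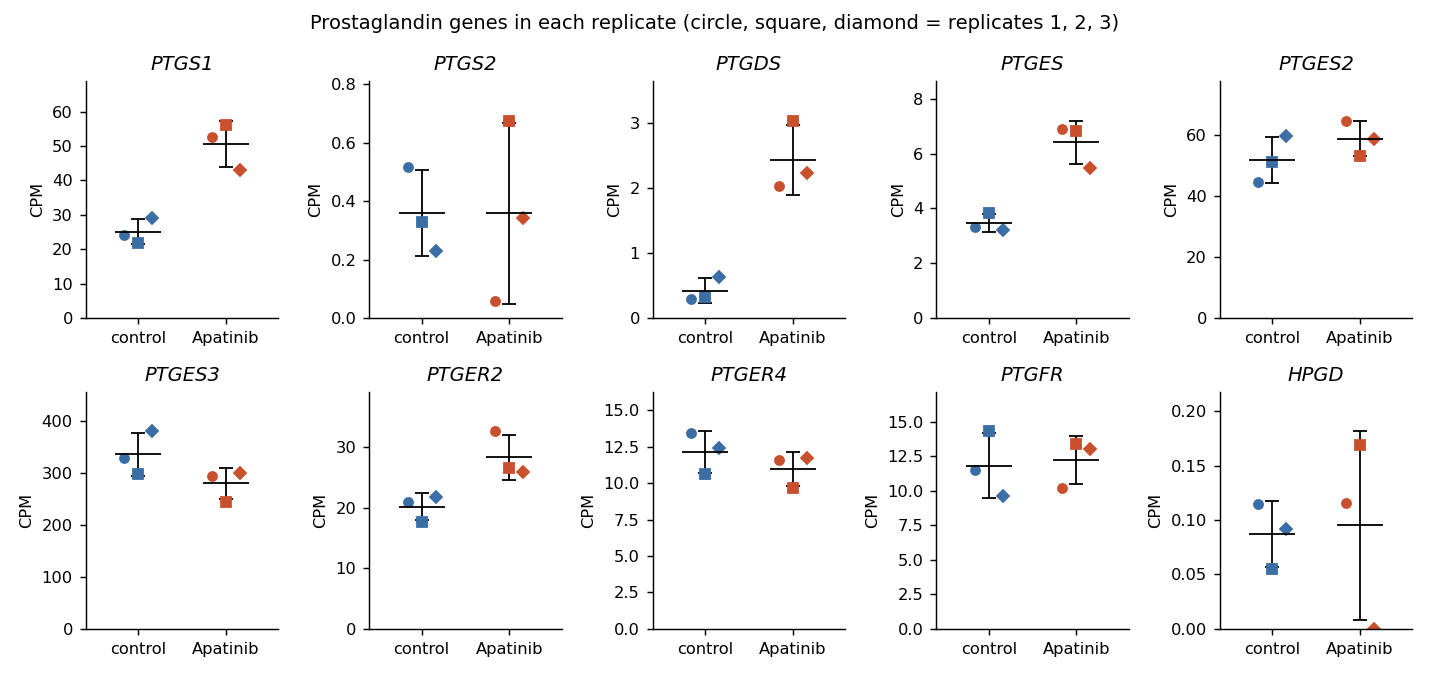
Counts scaled to library size (CPM) of the 10 prostaglandin genes in each of 3 control (blue) and 3 Apatinib (red) replicates, on a separate axis from 0 for each gene, with a circle, a square and a diamond for replicates 1, 2 and 3 and with the mean and SD as black bars. The red points of PTGDS, PTGS1, PTGES and PTGER2 lie above all blue points, and those of the other 6 genes mix with or span the blue points.

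The DNA just before the start of these genes is shown for the synthases whose groups stood apart, and for PTGS2, the inducible cyclooxygenase, which was nearly silent. Each sequence below holds the 250 bases upstream of a RefSeq start site on build GRCh38.p14, read 5′ to 3′ on the strand of the gene, with the last base next to the start. The RNA was mapped to another build, hg19, so no position in the count table is given. Capitals mark 3 motifs searched on both strands, and a motif on the opposite strand stands as its reverse complement. They are the TATA box with the letters TATAAA, the CCAAT box, spelled as its name, and the GC box with the letters GGGCGG. PTGDS lies at chr9:136977254-136977503 on the plus strand, and PTGS1 has 2 annotated starts, with windows at chr9:122370283-122370532 and chr9:122375052-122375301 on the plus strand. The window of PTGES is chr9:129753043-129753292 on the minus strand, and that of PTGS2 is chr1:186680424-186680673 on the minus strand.
PTGDS: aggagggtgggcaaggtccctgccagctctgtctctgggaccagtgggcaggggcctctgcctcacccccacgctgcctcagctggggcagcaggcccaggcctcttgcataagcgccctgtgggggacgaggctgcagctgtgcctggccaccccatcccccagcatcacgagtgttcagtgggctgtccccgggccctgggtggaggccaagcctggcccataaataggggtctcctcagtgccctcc
PTGS1, upstream start: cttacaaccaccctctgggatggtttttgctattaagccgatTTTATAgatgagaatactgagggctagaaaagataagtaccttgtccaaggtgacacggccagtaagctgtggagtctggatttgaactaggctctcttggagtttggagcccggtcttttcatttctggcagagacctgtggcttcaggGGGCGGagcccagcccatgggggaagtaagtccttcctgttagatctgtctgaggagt
PTGS1, downstream start: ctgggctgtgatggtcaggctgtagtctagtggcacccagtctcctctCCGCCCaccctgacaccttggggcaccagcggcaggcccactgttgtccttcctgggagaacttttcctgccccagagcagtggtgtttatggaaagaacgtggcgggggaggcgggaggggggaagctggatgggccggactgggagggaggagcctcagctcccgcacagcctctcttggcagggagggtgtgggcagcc
PTGES: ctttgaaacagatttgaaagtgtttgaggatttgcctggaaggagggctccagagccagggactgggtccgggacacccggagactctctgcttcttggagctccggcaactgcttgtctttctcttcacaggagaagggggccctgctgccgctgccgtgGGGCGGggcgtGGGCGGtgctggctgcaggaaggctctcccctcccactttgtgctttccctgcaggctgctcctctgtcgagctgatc
PTGS2: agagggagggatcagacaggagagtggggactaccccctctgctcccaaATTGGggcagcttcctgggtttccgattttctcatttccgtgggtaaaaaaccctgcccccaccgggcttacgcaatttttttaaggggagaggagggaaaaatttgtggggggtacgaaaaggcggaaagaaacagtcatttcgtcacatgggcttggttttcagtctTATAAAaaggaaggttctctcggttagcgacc

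The windows of the synthases that were higher after Apatinib did not share any searched motif across all 3 genes. PTGDS held none of the 3 motifs, PTGES held a pair of GC boxes and PTGS1 held a GC box at each start, together with a TATA box far from the upstream start. PTGS2 had a TATA box 32 bases before its start and a CCAAT box further up. Among all 35116 promoter windows of the RefSeq table, 10.7% held a TATA box, 32.0% a CCAAT box and 42.6% a GC box. GC boxes were present for 8 of the 10 genes, the exceptions being PTGDS and PTGS2. A cAMP response element (TGACGTCA, in 1.65% of all windows) and an AP-1 site (TGANTCA, in 6.57%) were searched on both strands and were not found in any of the 14 windows of the 10 genes. An E-box (CACGTG, in 6.34%) was found only for PTGES2. The PTGDS window was rich in G and C (68.4%, where the upper quartile of all windows was 68.0%) but had only 5 CG pairs, against a median of 11. PTGES2, PTGES3, PTGER2 and PTGER4, in comparison, had 21 or more CG pairs in each of their windows. These are matches of letters, and binding of any factor was not measured.

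Of the cyclooxygenases, PTGS1 was expressed at 6.01 FPKM (length-scaled) over the 6 samples and PTGS2 at 0.0694. PTGS1 (ENSG00000095303), the form that most tissues express at a steady level, had 52.6, 56.2 and 43.1 CPM in the Apatinib replicates and 24.3, 21.9 and 29.2 CPM in the control replicates. Every Apatinib replicate was above the highest control replicate. The means were 50.6 ± 6.79 CPM (SD, n = 3) and 25.1 ± 3.73 CPM (SD, n = 3). The log2 fold change was 1.01 with a standard error (SE) of 0.153. PTGS1 stayed past both limits in all 14 alternative analyses, with log2 fold changes between 0.80 and 1.13. These analyses reuse the samples on which the gene was chosen, so they describe the processing only.

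PTGS2 (ENSG00000073756), the form that growth factors and inflammatory signals induce in many cells, had 1, 12 and 6 counts in the Apatinib replicates and 9, 6 and 5 counts in the control replicates. The groups overlapped fully, with the lowest and the highest value both in the Apatinib group. The mean level was 0.359 CPM in either group, with an SD of 0.309 for Apatinib and 0.147 for control (n = 3 each). With so few counts, small differences in PTGS2 were not detectable.

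PTGDS (ENSG00000107317), the lipocalin-type prostaglandin D synthase, had the largest difference among the genes described. It was counted 35, 54 and 39 times in the Apatinib replicates and 5, 6 and 14 times in the control replicates. Scaled to library size, these were 2.03, 3.04 and 2.23 CPM after Apatinib and 0.288, 0.329 and 0.64 CPM in the control. Every Apatinib replicate was above the highest control, which was replicate 3. The means were 2.43 ± 0.536 CPM and 0.419 ± 0.193 CPM (SD, n = 3 each). The log2 fold change was 2.48 (SE 0.373), which ranked 12th from the highest of the 16290 genes tested. The gene was thus among the larger rises of the experiment by ratio and, at the same time, weakly expressed, with only 20.4% of the genes tested at a lower FPKM.

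The size of the PTGDS ratio depended on the low control counts. Without control replicate 3, the log2 fold change was 2.95, and without each of the other 5 replicates in turn it was at least 2.28. On the scale of log2(FPKM + 1), in which 1 is added to each value and low genes are compressed, the difference was 1.15. PTGDS passed both limits in all 13 alternatives that gave it a value, and the filter asking for at least 10 counts in every sample removed it. Only control replicate 3 reached 10 counts, so PTGDS passed the filter of the main analysis through its Apatinib counts. The alternatives reuse the samples on which the gene was chosen, so they describe the processing only. In GENCODE release 29, exons of PTGDS share 634 bases with AL807752.7, another protein-coding gene annotated on the same strand. No gene of that name was found among the counted genes. Reads from that stretch may have been split or set aside only if it was counted under another name. The part of this overlap in the PTGDS counts was not tested.

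Prostaglandin D2 can also be made by HPGDS, the blood cell type of synthase, which had 2, 0 and 0 counts in the Apatinib replicates and 2, 0 and 0 in the control replicates. The receptors of prostaglandin D2 were close to 0 as well. PTGDR (DP1) had 2 counts in control replicate 1 and 0 in the other 5 libraries, and PTGDR2 (DP2) had between 2 and 5 counts in each.

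Of the prostaglandin E synthases, PTGES was the gene whose groups did not overlap. PTGES (ENSG00000148344), the microsomal form that is often induced together with PTGS2, had 6.91, 6.82 and 5.49 CPM after Apatinib and 3.34, 3.84 and 3.2 CPM in the control. Its means were 6.41 ± 0.798 and 3.46 ± 0.337 CPM (SD, n = 3 each), and its log2 fold change was 0.89 (SE 0.196). Its direction held in all 14 alternatives (0.80 to 0.99). PTGES was no longer past the FDR limit without Apatinib replicate 1 (log2 fold change 0.83), without control replicate 1 (0.86), without control replicate 2 (0.97) or with these 2 controls summed as 1 sample (0.90).

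PTGES2 (ENSG00000148334), a membrane-associated synthase, and PTGES3 (ENSG00000110958), the cytosolic form that is also the HSP90 co-chaperone p23, did not separate the groups. PTGES2 had 64.8, 53.1 and 58.8 CPM after Apatinib and 44.7, 51.3 and 59.8 CPM in control cells (log2 fold change 0.18, SE 0.141). PTGES3 had 295, 245 and 301 CPM after Apatinib and 330, 298 and 381 CPM in control cells (log2 fold change -0.26, SE 0.135). Control replicate 3 was the highest control of both genes, and for each of them a control and an Apatinib replicate overlapped. The pseudogene PTGES3P1 had 16 to 27 counts in each library, and reads that fit both genes were not resolved here, so the PTGES3 count is uncertain to that extent.

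Among the receptors, PTGER2 (ENSG00000125384), which is EP2 and raises cAMP when it binds prostaglandin E2, had 32.6, 26.5 and 25.9 CPM after Apatinib and 21, 17.7 and 21.8 CPM in the control. Each Apatinib replicate exceeded each control replicate, with means of 28.3 ± 3.74 and 20.2 ± 2.17 CPM (SD, n = 3 each). The log2 fold change of 0.49 (SE 0.148) lay just under the limit of 0.5, and PTGER2 did not pass the FDR limit either. Without control replicate 3 it was 0.55 and PTGER2 passed both limits, and it did not pass in the other 13 alternatives (0.38 to 0.55).

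PTGER4 (ENSG00000171522), or EP4, the other prostaglandin E2 receptor coupled to cAMP, had 11.6, 9.64 and 11.7 CPM after Apatinib and 13.4, 10.6 and 12.4 CPM in control cells (log2 fold change -0.15, SE 0.163). PTGFR (ENSG00000122420), the prostaglandin F2α receptor, had 10.2, 13.4 and 13 CPM after Apatinib and 11.5, 14.3 and 9.6 CPM in control cells (log2 fold change 0.05, SE 0.187). The replicates of both receptors were interleaved, and PTGFR took either sign over the alternatives (-0.08 to 0.20). HPGD (ENSG00000164120), the inactivating enzyme, was at 2, 3 and 0 counts after Apatinib and 2, 1 and 2 counts in the control, at or under 3 counts in every library, and no fold is given.

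**Figure D2:**
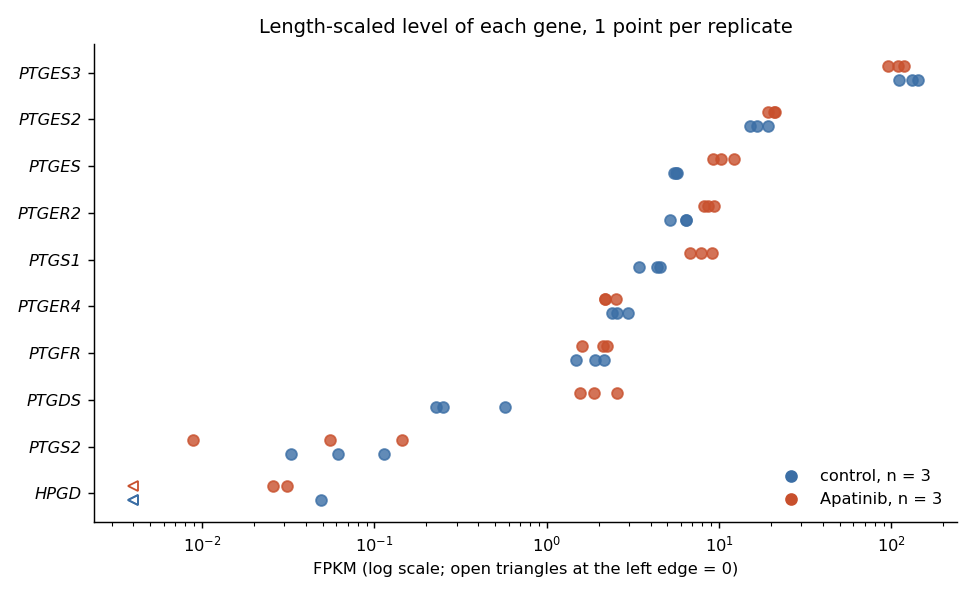
Length-scaled levels (FPKM, log axis) of the 10 prostaglandin genes, with 1 point for each of 3 control (blue) and 3 Apatinib (red) replicates, ordered by the mean over the 6 samples. PTGES3 lies at the top at 95.2 to 143 FPKM, PTGDS spans 0.228 to 2.55 FPKM, and HPGD is at or near 0 in all samples.

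Levels of different genes were compared in FPKM, the deposited fragments per kilobase of transcript, scaled to library size. Over the 6 samples, PTGES3 had the highest mean level (118 FPKM), followed by PTGES2 (18.7), PTGES (8.09), PTGER2 (7.37) and PTGS1 (6.01). Then came PTGER4 (2.47), PTGFR (1.91), PTGDS (1.17), PTGS2 (0.0694) and HPGD (0.0176). PTGES3 had a higher level than 97.9% of the genes tested and PTGDS a higher level than 20.4%. In this order, the ranges over the 6 samples overlapped between PTGES and PTGER2, PTGER2 and PTGS1, PTGER4 and PTGFR, PTGFR and PTGDS, and PTGS2 and HPGD, and these neighbours cannot be ranked. PTGDS was at 1.55, 2.55 and 1.88 FPKM after Apatinib, where it overlapped with PTGFR, and at 0.228, 0.25 and 0.57 FPKM in the control, below every PTGFR value.

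The FPKM order has a limit that was visible in the values. The deposited FPKM of PTGES was 3.11 times the value recomputed from the counts and the exon length of GENCODE 29, and that of PTGDS was 2.22 times the recomputed value, whereas the other 8 genes lay between 0.751 and 1.3 times. On the recomputed means over the 6 samples, PTGES (2.6 FPKM) stood below PTGER2 (9.79), PTGS1 (6.53) and PTGER4 (2.92) and next to PTGFR (2.55), and PTGDS (0.527) stood below PTGFR. The place of PTGES in the order therefore rests on the deposited FPKM, as does the overlap of PTGDS with PTGFR after Apatinib. HPGD was listed at 0 FPKM in control replicates 1 and 3, although it had 2 counts in each, so its FPKM values do not follow from its counts.

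PTGS1, PTGES and PTGER2 followed PTGDS across the 6 samples. The Pearson correlation with PTGDS in log2 CPM was 0.98 for PTGS1, 0.91 for PTGES, 0.84 for PTGER2 and 0.60 for PTGES2. It was 0.05 for PTGFR, -0.54 for PTGER4 and -0.63 for PTGES3. The genes most like PTGDS among all genes tested were B4GALT4, a galactosyltransferase (0.9955), RND1 (0.9937), SCARA5, a scavenger receptor (0.9937), RNF130, a ubiquitin ligase (0.9937), and AKR1B10, an aldo-keto reductase (0.9934). With 6 points in 2 groups such values describe mostly the difference between the groups, and 1049 of the 16290 genes had a correlation above 0.9. The 5 genes were picked for following PTGDS, which separates the groups in these same samples. Their choice therefore largely set a difference between the groups, and their FDRs are descriptions only. Of the 5 genes, RND1 (log2 fold change 1.40, FDR 0.0207), SCARA5 (1.96, 0.0114) and AKR1B10 (0.90, 0.0112) passed both limits in edgeR's quasi-likelihood test, and B4GALT4 (0.35, 0.0856) and RNF130 (0.33, 0.0745) did not. Without control replicate 1 the FDR of RND1, SCARA5 and AKR1B10 was 0.104, 0.0637 and 0.0708, and without control replicate 2 it was 0.101, 0.0641 and 0.0705. RND1 did not pass in limma either, with an FDR of 0.0808 on log2(FPKM + 1) and 0.0854 on log2(FPKM + 0.1). SCARA5 resembled PTGDS in count as well, with 23, 41 and 32 counts after Apatinib and 6, 7 and 14 counts in the control.

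PTGDS, PTGS1, PTGES and PTGES2 all lie on chromosome 9, and PTGDS lies there within a group of lipocalin genes. Among the 5 protein-coding genes on either side of PTGDS in the RefSeq order, 6 passed the filter on low counts. ABCA2, a lipid transporter of the ABC family, rose by 0.61 on the log2 scale (FDR 0.0145, but 0.0967 without control replicate 1 and 0.0919 without control replicate 2), and EDF1 (-0.03), TRAF2 (-0.28), FBXW5 (0.15), PAXX (0.19) and CLIC3 (1.07, FDR 0.18) did not pass both limits. The nearest lipocalins were close to silent. LCN12 had 7, 10 and 8 counts after Apatinib and 2, 0 and 7 in the control, and LCNL1 had 4, 0 and 9 counts against 1, 2 and 0. C8G, also of the lipocalin family, had 5, 3 and 5 counts after Apatinib and 9, 5 and 9 in the control. The list of 19 lipocalin genes, which holds LCN12, LCNL1 and C8G, had 3 genes past the filter and 0 past both limits in edgeR. DESeq2 and limma also called 0 of those they gave an FDR. In edgeR, 2 of the 3 had an unadjusted p under 0.05. So had at least the 2102 of all 16290 genes tested whose FDR was under 0.05, and nothing is read from this count. APOD, a lipocalin that carries arachidonic acid among other lipids, had 48, 62 and 43 counts after Apatinib and 32, 33 and 38 in control cells (log2 fold change 0.70, SE 0.245, FDR 0.0812).

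The rest of the eicosanoid pathway was listed by textbook roles, with earlier results of these data known, in 6 groups with 86 genes. Of these genes, 43 passed the filter on low counts. In the Apatinib group 4 of these 43 rose and 1 fell, which is 11.6% beside 11.5% of all genes tested, a share close to the background in the main analysis. The genes that rose were PTGIS, MGLL, EPHX2 and SLCO3A1, and the gene that fell was SLCO4A1. The median log2 fold change of the 43 genes was 0.13, with 31 values above 0 and 12 below. Over all genes tested the median was 0.00, with 8195 values above 0 and 8095 below, and the difference was not tested. Without control replicate 1, or without control replicate 2, only PTGIS and MGLL passed, and the same holds with these 2 controls summed as 1 sample. These are 2 of 44 genes in each case, beside 275 of 16708, 300 of 16698 and 292 of 16731 over all genes. With all 6 samples, each limma fit called 4 of 42, beside 796 and 810 of 15829. The fit with the replicate number as a block called 4 of 43, beside 2215 of 16290. The relation to the background thus varied by setting. It rests on few genes, and no difference from the background was tested.

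**Figure D3:**
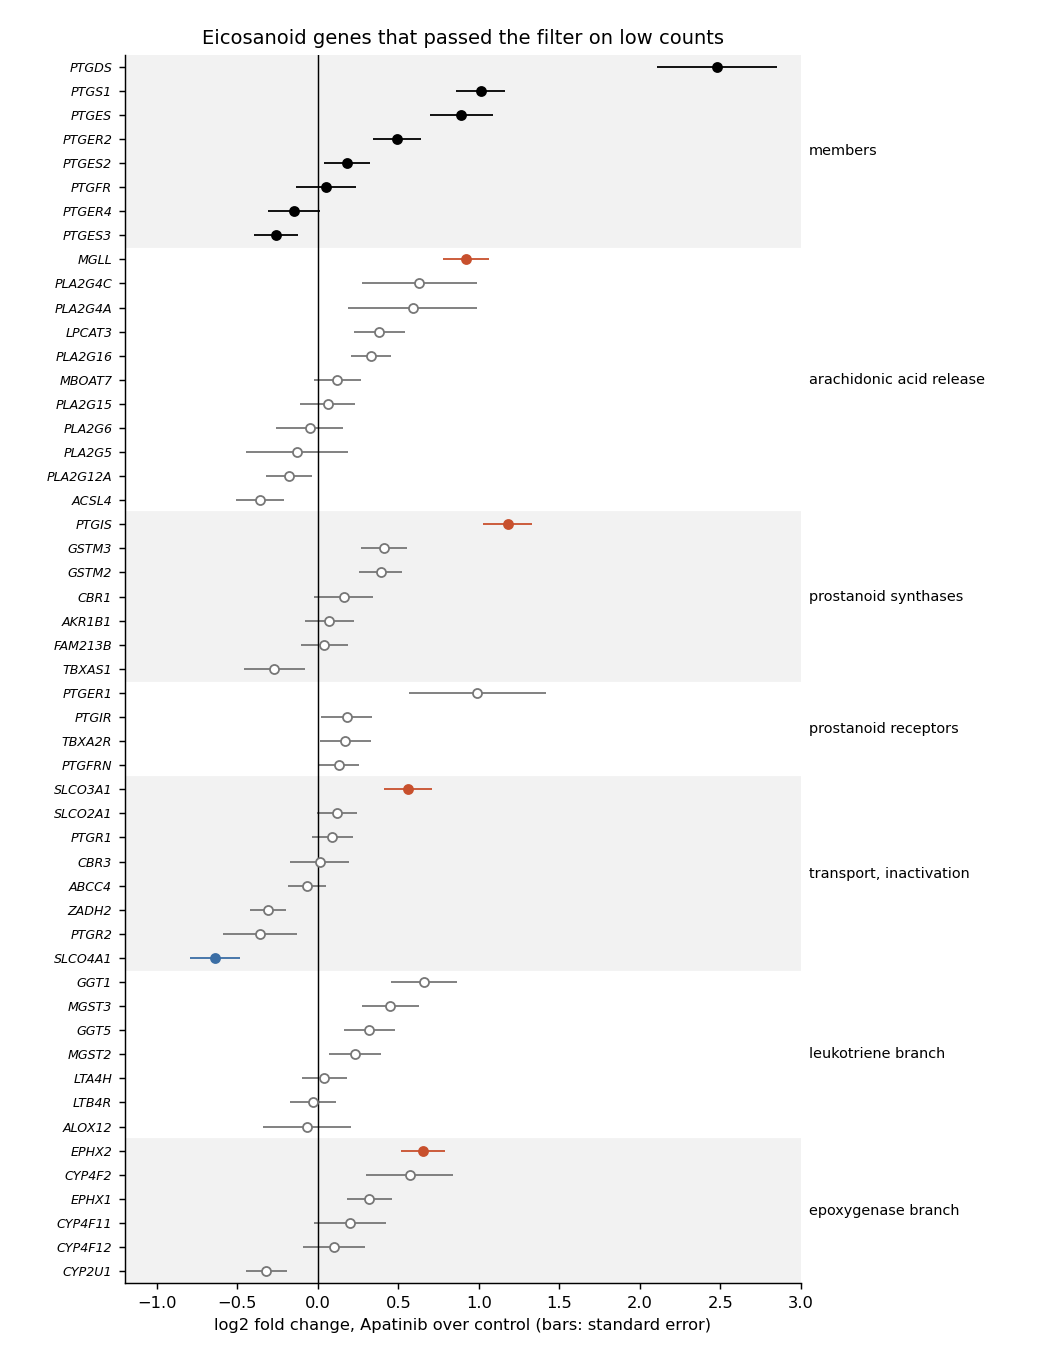
Log2 fold changes (Apatinib over control) with standard errors for the 8 prostaglandin genes (black, top) and the 43 other eicosanoid genes that passed the filter, arranged by role, with genes past both limits filled in red (higher) or blue (lower) and the others open. Outside the top group, PTGIS at 1.18 and MGLL at 0.92 lie furthest to the right among the filled points, and SLCO4A1 at -0.64 is the filled point on the left.

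Arachidonic acid supply was represented by 11 genes that passed the filter, of which 1 rose (9.09%, beside 11.5% of all genes tested past both limits). MGLL, the monoacylglycerol lipase that cleaves 2-arachidonoylglycerol and so frees arachidonic acid, had 87.5, 75.4 and 66.9 CPM after Apatinib and 41.4, 35.7 and 44.2 CPM in the control. The groups were well apart, with means of 76.6 ± 10.4 and 40.5 ± 4.33 CPM (SD, n = 3 each). Its log2 fold change was 0.92 (SE 0.141), with an FDR of 0.00507 in edgeR's quasi-likelihood test. The FDR stayed between 1.98e-07 and 0.0384 over the 14 alternatives. PLA2G4A, the cytosolic phospholipase A2 that is the usual source of arachidonic acid in stimulated cells, was low at 11, 11 and 17 counts after Apatinib and 10, 9 and 9 counts in the control (log2 fold change 0.59, FDR 0.343). MBOAT7, which puts arachidonic acid back into phosphatidylinositol, had a log2 fold change of 0.12 (FDR 0.623).

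Of the other terminal synthases, 7 passed the filter and 1 rose (14.3%, beside 11.5% of all genes tested past both limits). PTGIS (ENSG00000124212), which makes prostacyclin from prostaglandin H2, had 29.8, 25.3 and 25.9 CPM after Apatinib and 13, 10.1 and 12.6 CPM in the control. Each Apatinib replicate was above all controls, with means of 27 ± 2.44 and 11.9 ± 1.57 CPM (SD, n = 3 each). The log2 fold change was 1.18 (SE 0.152, FDR 0.00331), and the FDR stayed between 3.03e-09 and 0.0241 over the 14 alternatives. TBXAS1, the thromboxane synthase, had a log2 fold change of -0.27 (FDR 0.356), and AKR1B1, an aldose reductase that can make prostaglandin F2α, had 286 CPM after Apatinib and 272 CPM in the control (0.07, FDR 0.794). GSTM2 and GSTM3, glutathione transferases placed in this list for their reported prostaglandin synthase activity, had log2 fold changes of 0.39 (FDR 0.0777) and 0.41 (FDR 0.0794).

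The 4 other prostanoid receptors and receptor-linked genes that passed the filter gave 0 DEGs in edgeR. In that test 1 of them, PTGER1, had an unadjusted p under 0.05, as had at least 2102 of all 16290 genes tested. DESeq2 and limma also called 0, but DESeq2 gave no FDR for PTGER1 and limma did not test it. PTGER1 (EP1) was counted 33, 18 and 14 times after Apatinib and 9, 9 and 18 times in the control. Its highest value, in Apatinib replicate 1, stood apart, and its log2 fold change of 0.99 (SE 0.425) had an FDR of 0.14. Without that replicate the log2 fold change was 0.55 (FDR 0.494). PTGIR, the prostacyclin receptor, was at 0.18 (FDR 0.475), TBXA2R, the thromboxane receptor, at 0.17 (FDR 0.511) and PTGFRN, a regulator of PTGFR, at 0.13 (FDR 0.519). PTGER3 (EP3) had 1 count in control replicate 1 and 0 elsewhere.

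Of 8 transport and inactivation genes that passed the filter, 1 rose and 1 fell (25%, beside 11.5% of all genes tested), and 0 passed without control replicate 1, without control replicate 2 or with these controls summed. SLCO4A1, an organic anion transporter that carries prostaglandins, had 19, 13.9 and 16.4 CPM after Apatinib and 24.3, 24.3 and 28.1 CPM in the control. It fell by 0.64 on the log2 scale (SE 0.153, FDR 0.024), and the FDR was 0.0872 without control replicate 1, 0.0879 without control replicate 2 and 0.0854 with these controls summed. SLCO3A1, of the same transporter family, had 15.9, 16 and 14.6 CPM after Apatinib and 9.85, 10.3 and 11.3 CPM in the control, a rise of 0.56 (SE 0.147, FDR 0.0313). Its FDR was 0.0769 without Apatinib replicate 1, 0.157 without control replicate 1, 0.146 without control replicate 2, 0.137 with these controls summed and 0.0602 with the replicate number as a block. In limma its FDR was 0.0597 on log2(FPKM + 1) and 0.059 on log2(FPKM + 0.1). Both genes have an antisense neighbour over some of their exons (SLCO4A1-AS1 and AC116903.1), and the strand of the counting is not given in the sources used here. ABCC4, an exporter of prostaglandin E2, was at -0.07 (FDR 0.719), and SLCO2A1, the main prostaglandin uptake carrier, was at 0.12.

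The lipoxygenase and epoxygenase branches use the same arachidonic acid. Of 20 leukotriene and lipoxygenase genes 7 passed the filter and 0 were DEGs in edgeR. DESeq2 and limma also called 0 of those they gave an FDR. In edgeR, 2 of the 7 had an unadjusted p under 0.05, as had at least 2102 of all 16290 genes tested. ALOX5, the entry enzyme of leukotriene synthesis, had 2 counts in control replicate 3 and 0 in the other libraries, while LTA4H, which acts further down, was expressed without a change past the limits (0.04, FDR 0.869). GGT1, which trims leukotriene C4, had a log2 fold change of 0.66 (FDR 0.0554), and its exons overlap those of SNRPD3. It passed when low counts were not filtered (FDR 0.0298), without Apatinib replicate 3 (0.034) and without control replicate 3 (0.0451), and MGST3, a microsomal glutathione transferase, passed without Apatinib replicate 2 (0.0239). Of 15 epoxygenase and hydroxylase genes 6 passed the filter and 1 rose (16.7%, beside 11.5% of all genes tested past both limits). EPHX2, the soluble epoxide hydrolase that degrades epoxy derivatives of arachidonic acid, had 27.6, 29.6 and 25.1 CPM after Apatinib and 19.1, 16.5 and 17 CPM in the control, a rise of 0.65 (SE 0.137, FDR 0.015). Its FDR was 0.0643 without control replicate 1, 0.098 without control replicate 2 and 0.0742 with these controls summed. EPHX1, the microsomal form, was at 0.32 (FDR 0.152).

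Few counts came from genes that mark other cells. The summed level of 7 blood cell markers was 4 to 5.01 CPM after Apatinib and 4.95 to 6.37 CPM in the control, and that of 6 epithelial markers was 3.21 to 4.88 CPM against 3.28 to 3.66 CPM, with ESRP1 past both limits and higher. CD68, among the blood cell markers, added almost nothing to these sums, with 0 or 1 count in each library. Its deposited FPKM, in contrast, was 11.8, 8.56 and 6.78 after Apatinib and 3.3, 1.79 and 2.85 in the control, without overlap between the groups, and its part in the PTGDS difference was not tested. For the endothelial genes, 6 of 7 were found by name and summed to 15.5 to 17.5 CPM after Apatinib and 14.5 to 16.8 CPM in the control, with VWF past both limits and higher and CDH5 past both limits and lower. The summed level of 8 fat cell markers was 65.8 to 90.5 CPM after Apatinib and 61.4 to 63.5 CPM in the control, with LPL past both limits and higher, while FABP4 and ADIPOQ were at 0. The 10 mesenchymal markers summed to 7077 to 8389 CPM after Apatinib and 5703 to 6077 CPM in the control, with COL3A1, COL6A1 and COL6A2 past both limits and higher. Each of these 7 marker calls was lost without control replicate 1 (FDR 0.0564 to 0.147), and 6 of them, all but COL3A1, also without control replicate 2 (FDR 0.0618 to 0.142). COL6A1, CDH5, VWF and ESRP1 were lost without Apatinib replicate 1, COL6A1 without Apatinib replicate 2, VWF and ESRP1 without Apatinib replicate 3, and CDH5 and ESRP1 without control replicate 3. In limma, on log2(FPKM + 1) and log2(FPKM + 0.1), COL3A1 (FDR 0.0634 and 0.0619) and LPL (0.0821 and 0.0809) did not pass, and DESeq2 gave no FDR for ESRP1. The mesenchymal and fat cell sums did not overlap between the groups, as was the case for PTGDS, and their part in the PTGDS difference was not tested.

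**Figure D4:**
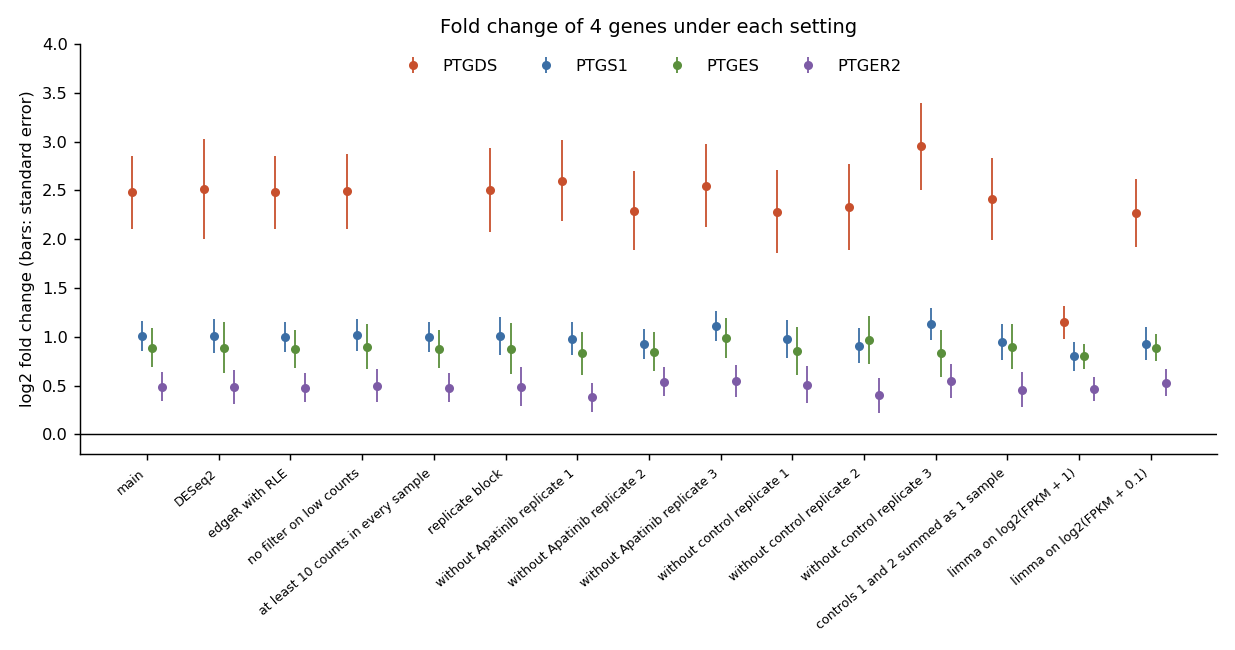
Log2 fold changes (Apatinib over control, bars show the standard error) of PTGDS, PTGS1, PTGES and PTGER2 in the reported analysis (main) and in 14 alternatives. PTGDS lies between 2.27 and 2.95 except on the log2(FPKM + 1) scale, where it is 1.15, and it has no value where at least 10 counts were asked of every sample, while PTGS1 keeps to 0.80 to 1.13 throughout.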

How the data were processed

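RNA sequencing of SW872 cells gave 6 libraries, 3 per group, grouped by their labels. Per the submitters' processing notes, CASAVA and STAR 2.7.1a were used with build hg19. The authors deposited raw counts of 57773 genes and FPKM values for each sample, and the program that made them is not given in the sources used here. The FPKM file of Apatinib replicate 1 holds an additional column under the name DZ3, which is the label of control replicate 3, and this column (1 column) was not used. The count analysis used edgeR 4.0.16 in R 4.3.3 (filterByExpr, TMM, quasi-likelihood F test, Benjamini-Hochberg adjustment over 16290 genes). CPM values use TMM factors (0.952 to 1.03), and log2 CPM a prior count of 2. The standard error is the log2 fold change divided by the square root of F. The study used DESeq2. Here DESeq2 1.42.0, limma 3.58.1 on log2(FPKM + 1) or log2(FPKM + 0.1) for genes with a mean FPKM above 0.5, edgeR with RLE scaling, other count filters, a replicate block, omission of each replicate and the sum of controls 1 and 2 were alternatives. The scripts were tested on simulated data.

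The members and gene lists were chosen with earlier results of these data known. The named genes were all members, the genes past both limits, of lowest p and of highest CPM in each list, and the 5 genes most correlated with PTGDS, and the remaining genes named were chosen after their values were seen. Replicate numbers did not pair the samples (correlations of same-numbered deviations -0.263, 0.0822 and -0.219, and the highest of all pairs was 0.389 for Apatinib 1 with control 3). Totals of 17043314 to 22067558 counts limit genes such as PTGDS, PTGS2 and HPGD, and counting error is part of the model. Promoters are RefSeq sequences on GRCh38.p14, and exon overlaps are from GENCODE 29.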

Additional observations from a re-analysis of the deposited data

How the results depend on the processing

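The differences of PTGDS and PTGS1 passed both limits in every alternative that gave them a value, and so did those of PTGIS and MGLL. For PTGDS and PTGS1, chosen on this contrast in the same samples, this describes the processing only. The number of genes past both limits among all genes tested (1866) was 275 to 2594 when 1 replicate was left out, with 795 without Apatinib replicate 1, 275 without control replicate 1 and 300 without control replicate 2. It was 292 with controls 1 and 2 summed, 796 with limma on log2(FPKM + 1) and 810 on log2(FPKM + 0.1), and these lower counts held more higher than lower genes (207 and 85, 556 and 240, and 578 and 232, against 973 and 893). Without control replicate 3, 1102 genes were higher and 1492 lower. For the other eicosanoid genes, the count of 5 was 2 to 7 when 1 replicate was left out and 2 with controls 1 and 2 summed. For the prostaglandin genes it was 3, and 2 to 4 when 1 replicate was left out. With the replicate number as a block, which is not a pairing in the labels or the data, the counts were 2215 for all genes, 4 for the other eicosanoid genes and 3 for the prostaglandin genes. The log2 fold change of MBOAT7 was -0.03 and that of AKR1B1 -0.08 without Apatinib replicate 1, and that of LTA4H was -0.07 without Apatinib replicate 3. Their ranges when 1 replicate was left out were -0.03 to 0.24, -0.08 to 0.21 and -0.07 to 0.18. The cause of these shifts was not tested. Low counts limit PTGDS, whose 3 controls hold 5, 6 and 14 counts, and the filter on low counts removed PTGS2 and HPGD.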
